A study of Mus musculus with 4 samples.

Results

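The genes described here are *Txnip*, *Arrdc4*, *Arrdc3*, *Mlx*, *Mlxip* and *Mlxipl*, the transcription factors through which cells sense glucose and the arrestin genes that answer to them. They were chosen by gene symbol, and all 6 were found among the 24347 gene rows of the files. RNA-seq was done at day 3 of differentiation in embryoid bodies (EBs), the floating clusters that mouse embryonic stem cells (mESCs) form once LIF is withdrawn. EBs of WT mESCs were compared with EBs of mESCs that carried a CRISPR/Cas9 deletion of the promoter of *Gm11549*, the gene of the micropeptide NEMEP (promoter KO), with 2 samples of each genotype, called here WT 1, WT 2, promoter KO 1 and promoter KO 2. Both genotypes were of strain 129/Ola, the medium held serum, and no further treatment was given. Promoter KO lines were grown from single sorted cells, and the labels do not give whether the 2 promoter KO samples came from 1 clone or from different clones. The question was whether the transcripts of the glucose-sensing genes differed between the genotypes.

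Glucose that enters a cell is phosphorylated by hexokinases, and glucose 6-phosphate activates the factors MondoA and ChREBP, which bind DNA as partners of the shared factor MLX. In mouse, *Mlxip* encodes MondoA and *Mlxipl* encodes ChREBP. *Txnip* and *Arrdc4* are among their best known direct targets and belong, with *Arrdc3*, to the alpha-arrestins, adaptor proteins of membrane protein traffic. TXNIP binds thioredoxin and promotes the internalization of the glucose transporters GLUT1 and GLUT3, so that its level forms a feedback on glucose entry.

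Promoter sequences are shown for *Txnip* and *Arrdc4*, the targets with the best known response to glucose, since the factors act through short elements in them. RefSeq (GRCm38.p6) held a window for all 6 genes, with 9 windows in all, and the 250 bases before each start were searched on both strands. The *Txnip* window was chr3:96557707-96557956 (plus strand), just before the gene at chr3:96557957-96561883. The *Arrdc4* window was chr7:68749239-68749488 (minus strand), upstream of the RefSeq start. The gene spans chr7:68736995-68749241 in GENCODE, whose start lies further upstream, so that 3 bases of the window fall inside it. Both are printed 5′ to 3′ on the gene's strand. Capitals mark 2 copies of CACGNG that lie 5 bases apart in *Txnip* and 1 copy of CACGTG in *Arrdc4*.
Txnip: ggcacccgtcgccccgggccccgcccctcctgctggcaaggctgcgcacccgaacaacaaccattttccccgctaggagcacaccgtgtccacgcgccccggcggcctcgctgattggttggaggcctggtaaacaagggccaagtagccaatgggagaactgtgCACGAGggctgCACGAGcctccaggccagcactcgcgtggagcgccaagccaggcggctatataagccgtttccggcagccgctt
Arrdc4: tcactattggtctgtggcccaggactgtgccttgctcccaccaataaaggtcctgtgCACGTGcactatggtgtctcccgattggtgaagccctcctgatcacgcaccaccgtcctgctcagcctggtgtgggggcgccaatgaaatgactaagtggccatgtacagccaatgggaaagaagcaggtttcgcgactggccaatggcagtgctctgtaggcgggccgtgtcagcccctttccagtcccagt

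The paired CACGNG element of *Txnip* spanned bases 85 to 69 upstream of the start. Such a pair was present in 15 of 32851 mouse promoter windows of this length (0.0457%), and among the 6 genes it was found in *Txnip* alone. The single element CACGTG, which is itself a form of CACGNG, was present in 6.02% of windows. It lay in *Arrdc4* at bases 193 to 188, in *Mlx* at bases 40 to 35 and in 1 of the windows of *Mlxipl* at bases 98 to 93. The CCAAT box was more common, in 33.8% of windows, and it was found 6 times in the *Arrdc4* window and 2 times in that of *Txnip*. A match describes the letters only and is not a measured binding site.

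The targeted gene was examined first. *Gm11549* was at 0.750 and 0.522 FPKM (fragments scaled to transcript length and to library size, a level per length) in WT 1 and WT 2. It was listed at 0 in promoter KO 1 and was at 0.0659 FPKM in promoter KO 2. The promoter KO values were both under the WT values, as labelled, but the gene was below the filter of at least 1 FPKM in at least 2 samples and was not tested.

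None of the 6 genes passed the test for a difference between promoter KO and WT. All 6 passed the filter, which left 11941 genes for limma on log2(FPKM + 1). Of the 6 genes, 0 had an adjusted p under 0.05 and 0 an unadjusted p under 0.05. Over all tested genes 226 (1.89%) were called lower and 201 (1.68%) higher, and 1863 (15.6%) were lower and 1786 (15.0%) higher at an unadjusted p under 0.05. Of the 226 called lower, 9 passed the filter through WT alone, and of the 201 called higher, 35 through promoter KO alone. A difference was thus built into the choice of these genes. The promoter KO values were both under the WT values for 1 of the 6 genes, *Arrdc3*, and above them for 0, while this held for 32.4% and 32.9% of all tested genes. The median log2 fold change was −0.10 over the 6 genes and 0.00417 over all tested genes. Calls over all genes depended on single samples. Without WT 2, and again without promoter KO 1, 0 of the 11941 genes were called. Calls also depended on the filter, since 0 of 18215 genes were called when every gene above 0 FPKM was kept.

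*Txnip* had the highest level of the 6 genes and was the most variable. Its FPKM values were 29.8 (WT 1), 84.3 (WT 2), 31.1 (promoter KO 1) and 23.4 (promoter KO 2). WT 2 stood above the other 3 samples, and WT 1 lay between the promoter KO samples, so the genotypes overlapped. The WT mean was 57.1 ± 38.5 FPKM and the promoter KO mean 27.3 ± 5.40 FPKM (SD, n = 2 each). On the log2(FPKM + 1) scale the fold change was −0.87 (SE 0.45, 95% interval −1.97 to 0.22), with a limma adjusted p of 0.239. The estimate rested on WT 2. Without it the log2 fold change was −0.14 (adjusted p 0.748 by limma). Without WT 1 it was −1.61 and passed the test (adjusted p 0.0419 by limma), with WT 2 as the only WT sample. Over all alternatives the adjusted p ranged from 0.0419 to 0.748.

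**Figure D1:**
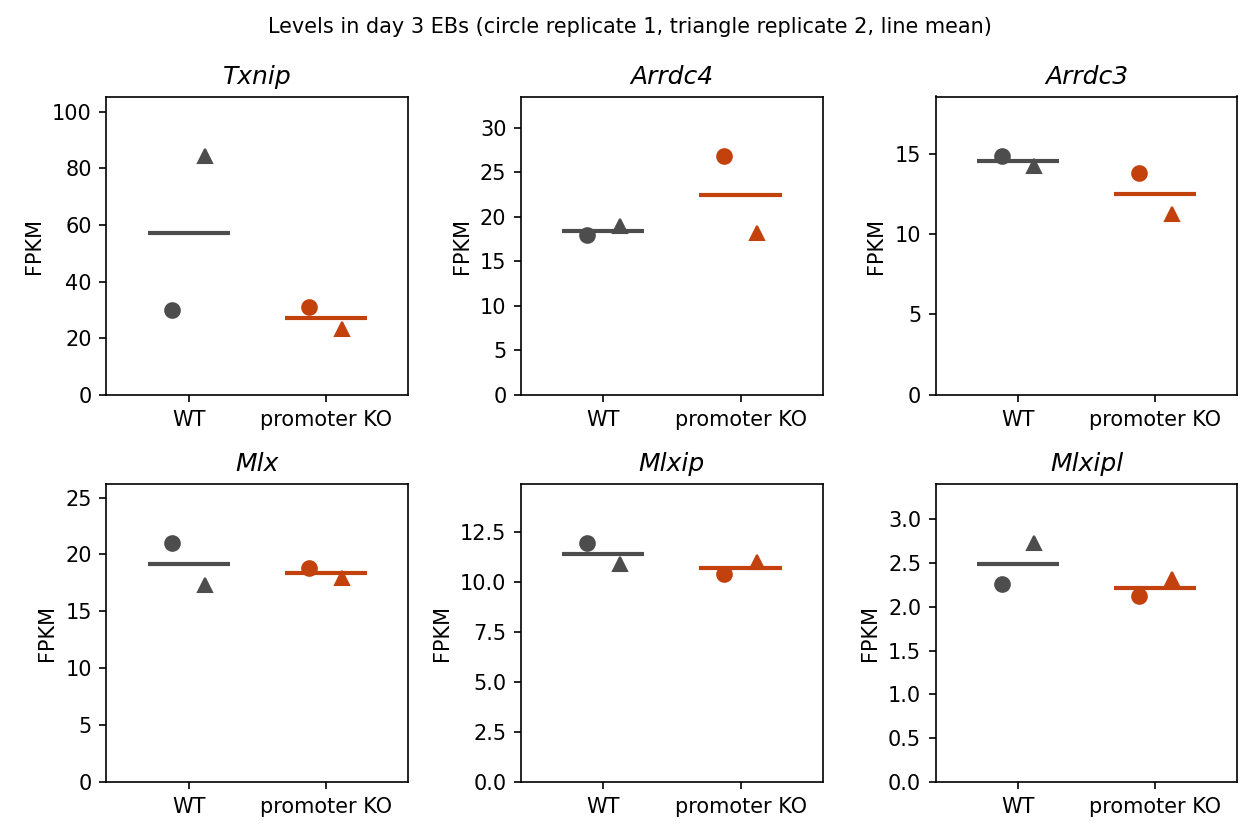
FPKM of the 6 genes (y axis, from 0, with its own scale in each panel) in WT and promoter KO day 3 EBs. Each point is 1 sample and each line the mean of 2 samples. WT 2 stands apart for *Txnip* at 84.3 FPKM, while for *Mlx*, *Mlxip* and *Mlxipl* the points of the genotypes overlap.

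The gap between the WT samples was among the widest of all tested genes. WT 2 exceeded WT 1 by 1.47 on the log2(FPKM + 1) scale in *Txnip*, against a median absolute difference of 0.128 over all tested genes. Only 45 of the 11941 tested genes (0.377%, *Txnip* included) had WT samples at least as far apart, and in 39 of these WT 2 was the higher sample. The promoter KO samples differed by −0.39 in *Txnip* (promoter KO 2 minus promoter KO 1). About 1921 fragments in WT 1 and 4832 in WT 2 were estimated to underlie the *Txnip* values from an assumed fragment length, for a counting error of 2.28% and 1.44%, which covers counting alone. The lncRNA gene *Gm15441*, named after its values were seen, overlaps exons of *Txnip* on the other strand and was at 0.130, 0.465, 0.188 and 0.204 FPKM in WT 1, WT 2, promoter KO 1 and promoter KO 2. Whether strand was used in counting is not stated, so reads of *Txnip* and *Gm15441* cannot be told apart.

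**Figure D2:**
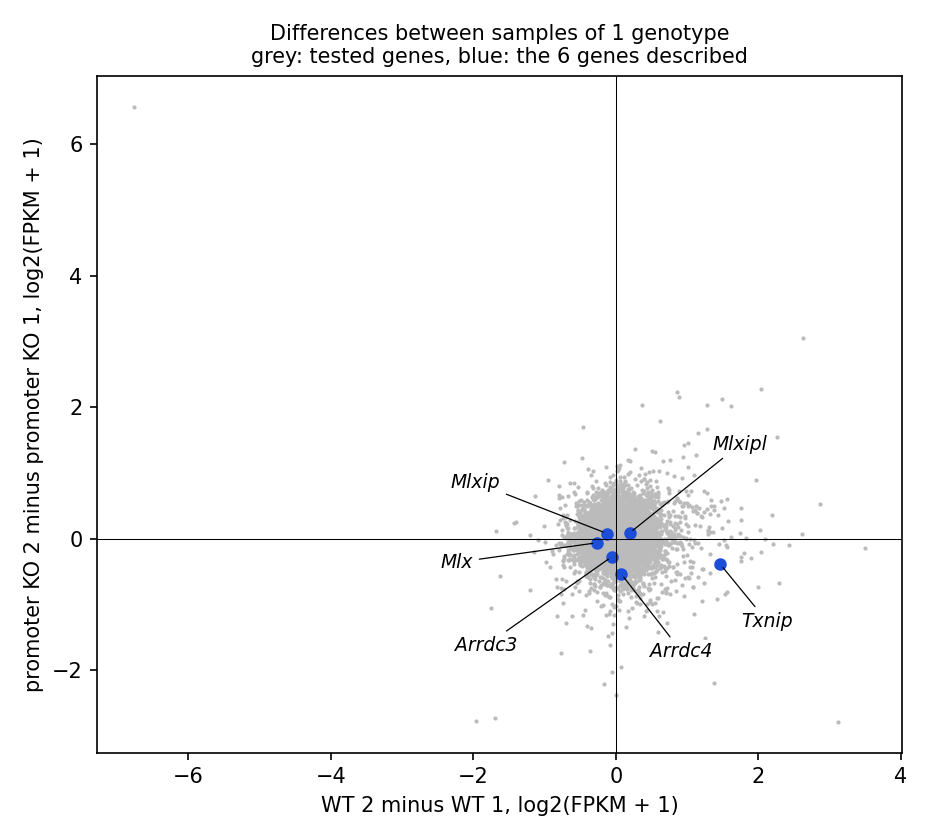
Difference between the WT samples (x axis) and between the promoter KO samples (y axis), both in log2(FPKM + 1), with 1 grey point for each of the 11941 tested genes and the 6 genes in blue. *Txnip* lies at 1.47 on the WT axis. *Arrdc4* lies at −0.54 on the promoter KO axis, where 636 of the tested genes (5.33%) were at least as far from 0, and the other 4 genes lie between −0.28 and 0.19 on both axes.

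Of the genes in the lists examined, 5 others had WT 2 above WT 1 by at least as much as *Txnip*. These were 5 of the 43 tested cell type markers, from 5 different lists (named here after their values were seen). The mesoderm factor *Mesp1* had 27.0 FPKM in WT 1 against 101 in WT 2. The VEGF receptor gene *Kdr* was at 1.67 and 11.3 FPKM, and the caudal homeobox gene *Cdx2* at 5.77 and 25.4 FPKM. *Tbx3* was at 1.58 and 8.63 FPKM, and *Gata4* at 5.02 and 19.4 FPKM. Over all 43 tested markers 30 were higher and 13 lower in WT 2 than in WT 1. Members of the same lists went both ways, with the mesendoderm marker *Foxa2* at 76.5 and 39.0 FPKM and the extraembryonic endoderm marker *Dab2* at 4.97 and 2.48 FPKM. The part of such marker differences in the *Txnip* value was not tested.

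*Arrdc4*, the other alpha-arrestin with a strong response to MondoA, did not follow *Txnip*. Its FPKM values were 17.9 (WT 1), 19.0 (WT 2), 26.8 (promoter KO 1) and 18.2 (promoter KO 2). Promoter KO 1 was the high sample, and promoter KO 2 lay between the WT samples. The log2 fold change was 0.25 (SE 0.18, 95% interval −0.20 to 0.70), with a limma adjusted p of 0.386. It rested on promoter KO 1, without which it was −0.019. *Txnip* and *Arrdc4* thus had their highest values in different samples and different genotypes.

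*Arrdc3*, which takes part in the turnover of membrane receptors, was at 14.8 and 14.2 FPKM in WT 1 and WT 2 against 13.8 and 11.2 in promoter KO 1 and 2. The genotypes did not overlap, but the mean of promoter KO was still 86.1% of that of WT. The log2 fold change was −0.21 (SE 0.13, 95% interval −0.53 to 0.12), which did not pass the test (adjusted p 0.327 by limma). It was −0.069 without promoter KO 2 and −0.35 without promoter KO 1. *Arrdc1* and *Arrdc2*, which are not among the 6 genes, had fold changes of nearly the same size, −0.18 and −0.20, with limma adjusted p of 0.321 and 0.328. *Arrdc5* did not exceed 0.0556 FPKM in any sample. Of the 6 alpha-arrestin genes 5 were tested and 0 were called by limma, beside 1.89% lower and 1.68% higher of all tested genes. At an unadjusted p under 0.05 there were also 0 in either direction, beside 15.6% lower and 15.0% higher. The median log2 fold change of the 5 genes was −0.20.

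The factors themselves varied little. *Mlx* was at 21.0, 17.3, 18.8 and 17.9 FPKM in WT 1, WT 2, promoter KO 1 and promoter KO 2, with both promoter KO samples inside the WT range. Its log2 fold change was −0.05 (95% interval −0.36 to 0.25; limma adjusted p 0.805). Without WT 1 it was 0.082. Exons of *Mlx* overlap those of *Psmc3ip*, a meiotic recombination gene, which was at 32.8, 35.8, 33.6 and 33.2 FPKM in the same order and was chosen after its values were seen.

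*Mlxip*, the gene of MondoA, was at 11.9 and 10.9 FPKM in WT 1 and WT 2 against 10.4 and 11.0 in promoter KO 1 and 2. The genotypes overlapped, and the log2 fold change was −0.08 (95% interval −0.37 to 0.20; limma adjusted p 0.655). Exons of *Mlxip* and *Mlxipl* overlap the antisense genes *Gm15747* and *Gm43500*, so the same limit of strand holds for them. *Mlxipl*, the gene of ChREBP, which is best known in liver and fat, had the lowest level, at 2.26, 2.73, 2.12 and 2.31 FPKM. Its log2 fold change was −0.12 (95% interval −0.49 to 0.26; limma adjusted p 0.634), and the estimated 155 to 203 fragments behind each value carry a counting error of 7.01% to 8.02%. A p that misses the threshold does not show equal levels. The intervals of *Mlx* and *Mlxip* nevertheless held no log2 change below −0.37 or above 0.25, whereas that of *Txnip* reached −1.97.

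The order of the levels per length was similar in the 4 samples. In each sample *Txnip* was at rank 1, *Arrdc3* at rank 4, *Mlxip* at rank 5 and *Mlxipl* at rank 6. *Arrdc4* was at rank 2 and *Mlx* at rank 3 except in WT 1, where *Mlx* was above *Arrdc4*, and their ranges overlapped within both genotypes. The ranges of *Txnip* and *Arrdc4* also overlapped in promoter KO, where *Txnip* was at 27.3 ± 5.40 and *Arrdc4* at 22.5 ± 6.11 FPKM (SD, n = 2). MondoA transcripts exceeded ChREBP transcripts in every sample, with means of 11.4 against 2.49 FPKM in WT and 10.7 against 2.22 FPKM in promoter KO.

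**Figure D3:**
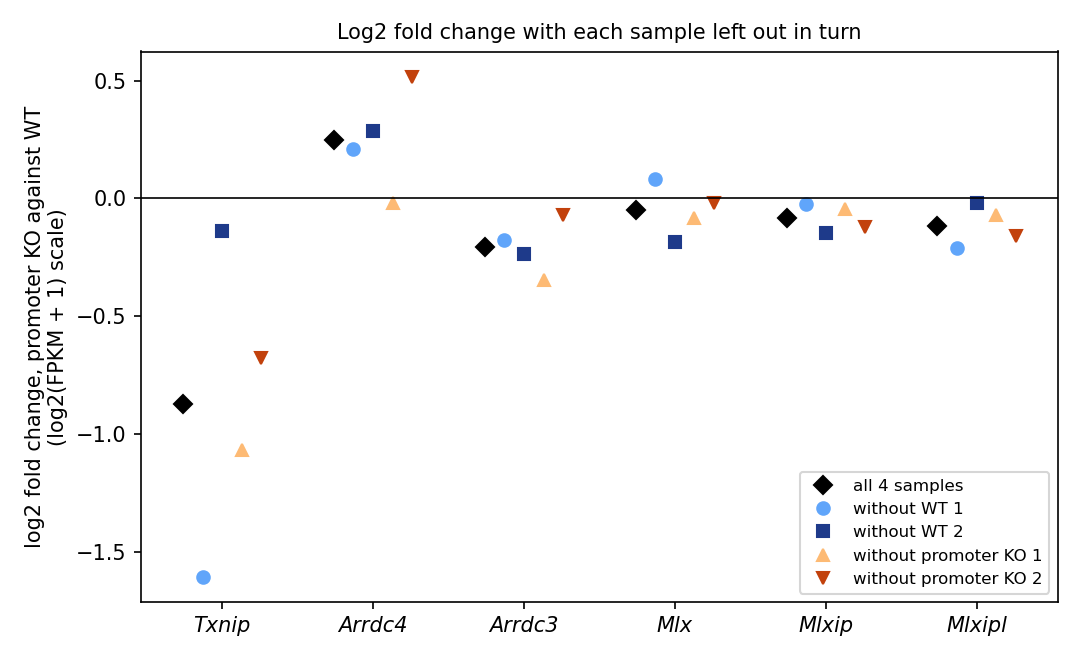
Log2 fold change of promoter KO against WT on the log2(FPKM + 1) scale (y axis) for the 6 genes (x axis), with all 4 samples and with each sample left out in turn. *Txnip* ranges from −1.61 without WT 1 to −0.14 without WT 2, while *Mlxip* stays between −0.15 and −0.022.

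The genes with the most similar profiles were sought by the Euclidean distance over the 4 samples between mean-centred log2(FPKM + 1) values, among the 6532 tested genes with a mean of at least 10 FPKM. For *Txnip* they were the interferon-induced membrane protein gene *Ifitm1* (distance 0.169), the ATP synthase subunit gene *Atp5e* (0.229) and the claudin gene *Cldn4* (0.394). All 3 were highest in WT 2, and *Ifitm1* was at 103, 259, 114 and 79.3 FPKM in WT 1, WT 2, promoter KO 1 and promoter KO 2. For *Arrdc4* they were *Cops7a* (0.0570), *Timm23* (0.0582) and *Sec13* (0.0766), each highest in promoter KO 1. The nearest genes were *Praf2*, *Gusb* and *Dera* for *Arrdc3*, and *Dpy19l1*, *Pias4* and *Cdk2ap1* for *Mlx*. They were *Smc5*, *Ubr3* and *Dnajb1* for *Mlxip*, and *Tmed1*, *Arf2* and *Ndc80* for *Mlxipl*. Over 4 samples such likeness is a description, and the sample in which a nearest gene was highest follows from its selection. *Ifitm1*, *Timm23*, *Praf2*, *Cdk2ap1* and *Tmed1* share near-identical sequence with other annotated genes, and their values are uncertain.

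In the wider MLX and MAX network, which competes for the same kind of DNA element, all 13 genes were tested and 0 were called by limma in either direction, with 2 lower and 3 higher at an unadjusted p under 0.05, beside 15.6% and 15.0% of all tested genes. The median log2 fold change was −0.05. The list includes *Mlx*, *Mlxip* and *Mlxipl*, and the median of the other 10 genes was 0.041. The 3 genes with the highest levels lay above WT in both promoter KO samples without passing the test. *Mycn* was at 68.9 and 87.7 FPKM in WT 1 and WT 2 against 164 and 121 in promoter KO 1 and 2, for a log2 fold change of 0.85 (limma adjusted p 0.0573). *Max*, the partner of the MYC proteins, had a log2 fold change of 0.50 (limma adjusted p 0.0806), and *Myc* one of 0.42 (limma adjusted p 0.0981). *Mycl*, a further MYC gene, and *Mxi1*, whose protein opposes MYC at MAX, lay below WT in both promoter KO samples, with log2 fold changes of −0.51 and −0.62 (limma adjusted p 0.0614 and 0.0652, named after their values were seen).

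**Figure D4:**
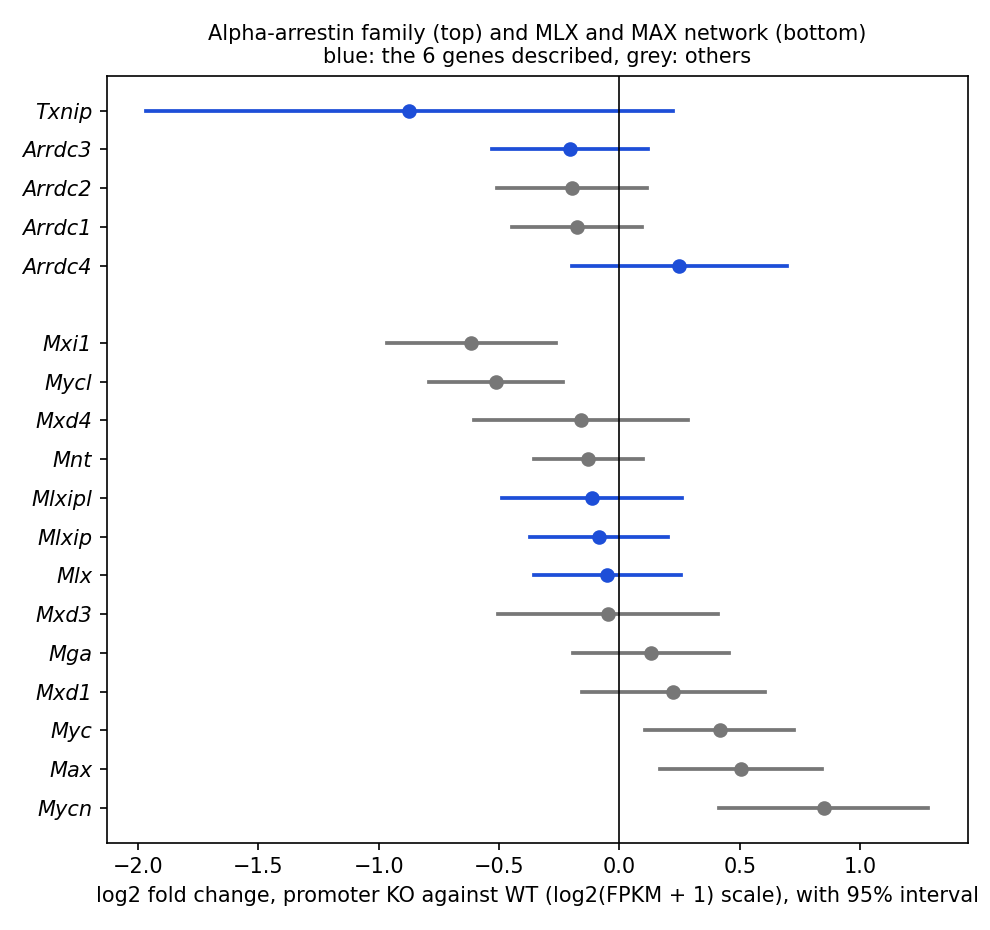
Log2 fold change of promoter KO against WT (x axis, log2(FPKM + 1) scale) with its 95% interval for the 5 tested alpha-arrestin genes and the 13 genes of the MLX and MAX network, with the 6 genes in blue. The interval of *Txnip* runs from −1.97 to 0.22, and those of the 6 genes all cross 0.

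Of 34 further genes known as targets of MondoA or ChREBP, 26 were tested. By limma 1 was called lower and 0 higher, and at an unadjusted p under 0.05 there were 13 lower and 3 higher, beside 1863 lower and 1786 higher of all 11941 tested genes. The promoter KO values were both under the WT values in 16 and above them in 5, beside 32.4% and 32.9% of all tested genes. The median log2 fold change was −0.31, beside 0.00417 over all tested genes. The gene called was *Khk*, which encodes ketohexokinase, the first enzyme of fructose breakdown. It was at 26.2 and 25.1 FPKM in WT 1 and WT 2 against 15.4 and 16.1 in promoter KO 1 and 2 (log2 fold change −0.67, SE 0.10, limma adjusted p 0.0389). The most abundant gene of the list was the pyruvate kinase gene *Pkm*, with a WT mean of 3145 ± 28.5 FPKM against 2638 ± 13.6 in promoter KO (SD, n = 2 each, limma adjusted p 0.0827). The lipid synthesis genes *Scd2* and *Acly*, next in level, had log2 fold changes of −0.15 and 0.05, and neither passed the test.

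For the list of glucose entry and phosphorylation, 14 of 21 genes were tested. Of these limma called 1 lower and 1 higher, beside 1.89% and 1.68% of all tested genes. At an unadjusted p under 0.05 there were 6 lower and 2 higher, beside 15.6% and 15.0% of all tested genes. The median log2 fold change was −0.38. *Slc2a1*, the gene of GLUT1, was at 423 and 583 FPKM in WT 1 and WT 2 against 269 and 339 in promoter KO 1 and 2. Both promoter KO samples were below both WT samples, but the log2 fold change of −0.71 did not pass the test (limma adjusted p 0.0711). *Slc2a3*, the gene of GLUT3, was at 251, 366, 185 and 223 FPKM in the same order, with a log2 fold change of −0.58 (limma adjusted p 0.112). WT 2 was the highest sample for both transporters and for *Txnip*, but the order of the other samples differed. Both transporters were higher in promoter KO 2 than in promoter KO 1, while *Txnip* was lower there (23.4 against 31.1 FPKM). WT 1 was above both promoter KO samples for the transporters and between them for *Txnip*.

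Hexokinases make the sugar phosphate that the Mondo proteins sense. *Hk1* had a log2 fold change of −0.08 and *Hk2* one of −0.18, and neither passed the test (limma adjusted p 0.686 and 0.241). *Hkdc1*, a further hexokinase, was called higher by limma at a low level, at 0.245 and 0.0413 FPKM in WT 1 and WT 2 against 1.44 and 2.12 in promoter KO 1 and 2 (log2 fold change 1.28 on the log2(FPKM + 1) scale, limma adjusted p 0.0407). It passed the filter through promoter KO alone, so its call shows little beyond that choice, and the other 13 tested genes of the list had 1 called lower and 0 higher, with a median log2 fold change of −0.41. *Pgm2*, a phosphoglucomutase, was called lower, at 65.7 and 93.4 FPKM in WT 1 and WT 2 against 23.6 and 36.5 in promoter KO 1 and 2 (log2 fold change −1.39, limma adjusted p 0.0467). RefSeq lists *Pgm1* and *Pgm2* as older symbols of each other, so which of these enzymes the row stands for is uncertain. *Gpi1*, with the highest mean of the list, had a log2 fold change of −0.59 (limma adjusted p 0.0583).

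TXNIP takes its name from its binding to thioredoxin. All 16 genes of the thioredoxin system were tested, and limma called 0 lower and 1 higher, beside 1.89% and 1.68% of all tested genes. At an unadjusted p under 0.05 there were 2 lower and 3 higher, beside 15.6% and 15.0%. *Srxn1*, the sulfiredoxin that repairs overoxidized peroxiredoxins, was at 7.70 and 7.48 FPKM in WT 1 and WT 2 against 14.2 and 12.9 in promoter KO 1 and 2 (log2 fold change 0.76, limma adjusted p 0.0412). *Txn1*, the thioredoxin that TXNIP binds, had a log2 fold change of 0.17 (limma adjusted p 0.194), and the abundant *Prdx1* and *Prdx2* had 0.21 and −0.41 without passing the test. Values of *Txn1*, *Prdx1* and *Prdx2*, like those of *Pkm*, *Scd2*, *Gpi1* and *Ywhaz*, are uncertain, since near-identical copies exist.

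Of 20 genes that control TXNIP or act with it, such as ubiquitin ligases and AMPK subunits, 19 were tested. By limma 1 was called lower and 0 higher, beside 1.89% and 1.68% of all tested genes. At an unadjusted p under 0.05 there were also 1 lower and 0 higher, beside 15.6% and 15.0%. *Ddit4*, which encodes the mTORC1 inhibitor REDD1, a binding partner of TXNIP, was at 489 and 466 FPKM in WT 1 and WT 2 against 139 and 232 in promoter KO 1 and 2. The log2 fold change was −1.41 (SE 0.23, limma adjusted p 0.0422), with the genotypes well apart. The abundant *Nedd4* and *Ywhaz* had log2 fold changes of −0.07 and 0.06. *Nlrp3*, whose inflammasome protein can bind TXNIP, did not exceed 0.0355 FPKM. The calls of *Khk*, *Hkdc1*, *Pgm2*, *Srxn1* and *Ddit4* were each lost without WT 2 and without promoter KO 1, when no gene was called.

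**Figure D5:**
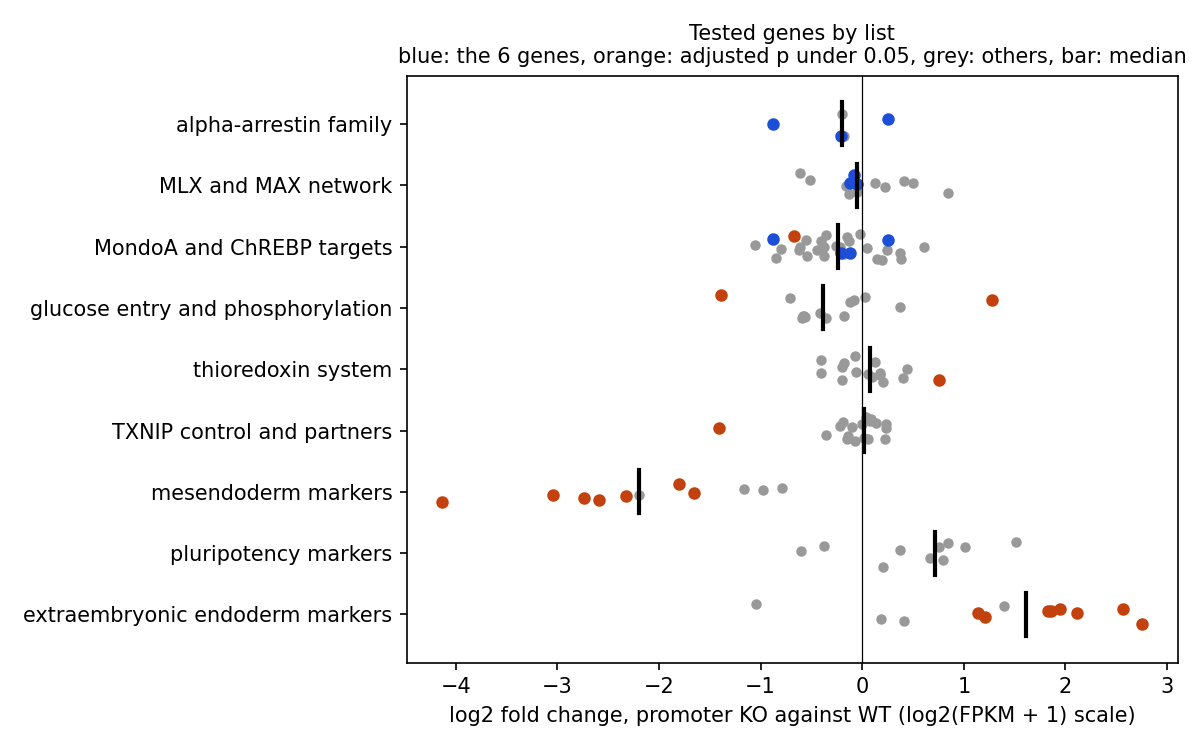
Log2 fold change of promoter KO against WT (x axis, log2(FPKM + 1) scale) of every tested gene in 9 lists. Each point is 1 gene, and the black bar is the median of the list. The glucose-sensing genes in blue lie between −0.87 and 0.25, while mesendoderm markers center on −2.19 and extraembryonic endoderm markers on 1.61.

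The paired CACGNG element occurs in windows of 14 genes, which were looked up after the values of *Txnip* had been seen. Of these, 13 were in the files and 9 were tested, and limma called 0 of them, *Txnip* included. Their log2 fold changes ran from −0.87 in *Txnip* to 1.27 in *Fkbp6*, with a median of 0.16. *Fkbp6* passed the filter through promoter KO alone, at 0.743 and 0.677 FPKM in WT 1 and WT 2 against 7.35 and 1.04 in promoter KO 1 and 2. Its log2 fold change was 0.26 without promoter KO 1 and 2.29 without promoter KO 2 (limma adjusted p 0.515 and 0.0307), and the median of the other 8 genes was 0.12. The promoter KO values were both under the WT values in 2 of the 9 and above them in 4, and 3 overlapped. Over all tested genes the shares were 32.4% under and 32.9% above. *Nfkb2* was among the lower ones, with a log2 fold change of −0.68 (limma adjusted p 0.0613).

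Cell type markers are given by list. All 11 mesendoderm markers were tested, and 7 were called lower by limma and 0 higher. The most abundant marker, *T*, was not among those called, at 306 and 448 FPKM in WT 1 and WT 2 against 50.5 and 127 in promoter KO 1 and 2 (limma adjusted p 0.0509). The 11 markers summed to 840, 1067, 166 and 339 FPKM in WT 1, WT 2, promoter KO 1 and promoter KO 2. Mesendoderm is the cell type given in the labels. Its markers were above 0 in every sample, at a lower sum in promoter KO, where *Mesp1* was at 0.759 FPKM in promoter KO 1. In both promoter KO samples the sum was below that of the extraembryonic endoderm markers (277 and 350 FPKM). The presence of markers alone does not settle the cell type. *Mixl1* and *Lhx1*, factors of the primitive streak, had log2 fold changes of −2.74 and −3.04 (limma adjusted p 0.0389 and 0.0208).

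Of the 12 extraembryonic endoderm markers 8 were called higher by limma and 0 lower, and they summed to 114, 153, 277 and 350 FPKM in the same order of samples. Of the 8, *Sox7* and *Cubn* passed the filter through promoter KO alone, and 6 of the other 10 markers were called higher. The most abundant marker, the matrix protein gene *Sparc*, had a log2 fold change of 1.20, and the laminin gene *Lama1* one of 2.76 (limma adjusted p 0.0318 and 0.0208). At an unadjusted p under 0.05 there were 10 higher and 1 lower, beside 15.0% and 15.6% of all tested genes. *Pdgfra*, the lower one, was at 2.19 and 6.78 FPKM in WT 1 and WT 2 against 1.07 and 1.84 in promoter KO 1 and 2. Its log2 fold change was −1.04 (limma adjusted p 0.159). *Gata4* overlapped between the genotypes (log2 fold change 0.18). Of the 10 pluripotency markers limma called 0 in either direction, with 1 lower and 4 higher at an unadjusted p under 0.05. Their sums were 1777, 1510, 2001 and 1882 FPKM, most of it *Pou5f1*, with a mean of 1439 FPKM. The median log2 fold change of the list was 0.71, with 8 positive and 2 negative.

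Other lineages were at lower levels. The 8 neuroectoderm markers summed to 108, 99.0, 100.1 and 108 FPKM, most of it *Otx2*, and 1 of 3 tested was called higher (*Tubb3*, limma adjusted p 0.0393). The list went both ways, with *Nes* below WT in both promoter KO samples (log2 fold change −1.10, limma adjusted p 0.0831) and *Otx2* overlapping between the genotypes. The 5 untested markers, each under 1 FPKM in all 4 samples, lay above WT in both promoter KO samples. The 7 blood and endothelium markers summed to 27.1, 45.9, 15.4 and 11.1 FPKM with *Etv2* as the most abundant, and *Etv2* was the 1 of 3 tested genes called lower (limma adjusted p 0.0244), while *Kdr* passed the filter through WT alone. *Pecam1*, the other tested gene, lay above WT in both promoter KO samples (log2 fold change 0.78, limma adjusted p 0.107). The 6 trophoblast markers summed to 23.4, 51.3, 14.9 and 17.7 FPKM with *Cdx2* as the most abundant on average through its 25.4 FPKM in WT 2, and 1 of 4 tested, *Tfap2c*, was called lower (limma adjusted p 0.0422). *Cdx2* and *Krt7* also lay below WT in both promoter KO samples and *Ascl2* above it (log2 fold change 0.52, limma adjusted p 0.0750), without passing the test. No marker was at 0 in all 4 samples, and *Hbb-bh1* was listed at 0 in WT 1 and both promoter KO samples. In these bulk samples, fewer cells of a type and less RNA per cell cannot be told apart. The part of cell composition in the values of *Txnip*, of the other glucose-sensing genes and of the lists around them was not tested.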

How the data were processed

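RNA-seq was measured in day 3 EBs of WT and promoter KO mESCs, with 2 samples of each genotype. The authors deposited normalized values per gene, in 1 file per sample. The file headers name no unit and the methods call it RPKM, and the values were taken as FPKM, which Cufflinks estimates. The methods name TopHat, Cufflinks with GENCODE M4 and mm10, while the submitters' processing notes name HISAT2 2.1.0, Cufflinks and Cuffnorm, so which aligner made the values is uncertain. The strand setting is not given in the sources used here. The deposited FPKM values summed to 673951 to 696928 per sample, and 20000000 to 24500000 fragments per sample were estimated from the spacing of low values at an assumed fragment length of 200 bases. Counting errors follow from this estimate and cover counting only.

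From the FPKM values log2(FPKM + 1) was computed, and genes that reached 1 FPKM in 2 or more samples entered a fit in limma 3.58.1 (R 4.3.3; lmFit, eBayes with trend, 3.99 prior degrees of freedom), two-sided, with Benjamini-Hochberg adjustment over 11941 genes and a threshold of 0.05. A fold change on this scale understates the change of low genes. An exact permutation test of 2 against 2 samples cannot give a p below 0.333 and was not used. The study calls the samples of a genotype biologically independent and does not state how they were kept apart, so p-values measure the spread between these samples.

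The members and lists were chosen with earlier results of these data known. Named genes are the 6 genes, *Gm11549*, *Slc2a1*, *Slc2a3*, *Hk1*, *Hk2*, in each list the genes with an adjusted p under 0.05 and the 3 with the highest mean, and the 3 genes nearest in profile to each of the 6. Some of these are covered by the counts of their list alone. Genes outside this rule (*Gm15441*, *Psmc3ip*, *Arrdc2*, *Gm15747*, *Gm43500*, *Arrdc5*, *Pgm1*, *Nlrp3*, *Tbx3*, *Gata4*, *Pdgfra*, *Fkbp6*, *Nfkb2*, *A430005L14Rik*, *Mycl*, *Mxi1*, *Krt7* and *Hbb-bh1*) were chosen after their values were seen. Positions are from GENCODE M21 (GRCm38), promoters from RefSeq, and near-identical copies were genes with at least 95% identity over at least 200 bases by BLAST 2.17.0. Python 3.11.15, numpy 2.4.6, pandas 2.3.3 and matplotlib 3.10.9 were used. Alternatives were a replicate block, other pseudocounts, filters, scalings and a fit without trend, each sample left out, and a ratio of means. The alternative planned for raw counts could not be run on FPKM values.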

Additional observations from a re-analysis of the deposited data

How the results depend on the processing

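Apart from *Txnip* without WT 1, none of the 6 genes passed the test under any alternative, and 1 passed there. With each sample left out (the lone sample is assumed to vary like the other genotype) the log2 fold change ranged from −1.61 to −0.14 for *Txnip*, −0.019 to 0.52 for *Arrdc4*, −0.35 to −0.069 for *Arrdc3*, −0.18 to 0.082 for *Mlx*, −0.15 to −0.022 for *Mlxip* and −0.21 to −0.019 for *Mlxipl*, and the number of the 6 genes called from 0 to 1.

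Over all genes, 226 were called lower and 201 higher. With the replicate block these were 667 and 535. Whether same-numbered samples were paired is not stated. Their deviations correlated at 0.0348 over all tested genes, most of which differed little between samples, so this value cannot settle it. The block changed no call of the 6 genes, with *Txnip* at −0.87 (limma adjusted p 0.203). Of the list genes 17 were called with the block alone and 0 without it alone, among them *Slc2a1* (limma adjusted p 0.010), *Slc2a3* (0.0257), *Gpi1* (0.0146), *Max* (0.0273), *Mycn* (0.0466) and *T* (0.00809). Of the genes with the paired element, *A430005L14Rik* and *Nfkb2*, both lower in promoter KO, were called with the block alone (limma adjusted p 0.0364 and 0.0382). Without a filter, 0 and 0 genes were called among 18215. A filter at a mean of 5 FPKM gave 108 and 95 of 8562, the fit without trend 27 and 55, and median centring 126 and 157, with more higher than lower. With single samples left out the counts ranged from 0 to 248 lower and from 0 to 238 higher.

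Among other genes, those with small fold changes changed sign with a sample left out, namely *Hk1* (−0.18 to 0.014), *Scd2* (−0.32 to 0.014), *Acly* (−0.00362 to 0.10), *Nedd4* (−0.18 to 0.037), *Otx2* (−0.096 to 0.11, and −0.0350 with quantile normalization), *Timm23* (−0.050 to 0.50), *Dpy19l1* (−0.15 to 0.083), *Pias4* (−0.17 to 0.045) and *Cdk2ap1* (−0.22 to 0.025). The cause was not tested.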
